A study of Mus musculus with 7 samples.

Results

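Responses to acute stresses of equal length were set directly against each other in mouse embryonic fibroblasts (MEFs), namely oxidative stress from sodium arsenite and hyperosmotic stress from added NaCl, each read after 3 h. The difference was taken between the 2 libraries themselves and not through the control. A gene was compared when its mean over all 7 libraries of the series was at least 2 TPM (transcripts per 1000000, the share of a library given to a gene's transcripts after correction for their length). Symbols that begin with Gm, Mir, Snor or mt-T and symbols that contain -ps or -rs were left out. This left 11558 of 49382 genes, and 2 of the 7 samples carried the comparison.

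The cells were wild type fibroblasts grown from mid-gestation embryos after the head and fetal liver had been taken away. They were cultured overnight in complete medium and then received 10 μM NaAsO2 for 3 h (arsenite), 100 mM NaCl for 3 h, or no stress (control). The other 4 libraries came from cells kept for 10 h without glucose, without glutamine, at 0.1% oxygen (hypoxia) or with 1 μM thapsigargin, which empties the calcium store of the endoplasmic reticulum (ER), and they serve here only to place a level. Each condition was 1 library, so there was no replicate error, no difference could be tested, and every count and fold below describes these libraries alone.

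Arsenite binds protein thiols. It frees the transcription factor NRF2 from its inhibitor KEAP1, which turns on genes for heme breakdown, glutathione and thioredoxin, and the misfolded protein that it causes activates heat shock factor 1 (HSF1), the driver of chaperone genes. High salt draws water out of the cell, and the factor NFAT5 answers by inducing transporters and enzymes that load the cell with organic osmolytes in place of ions. Metal ions act on a further factor, MTF1, which controls the metallothioneins, and shortage of amino acids or misfolding in the ER acts through ATF4 in the integrated stress response.

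The marker of each treatment followed its label. Hmox1, the heme oxygenase that NRF2 induces, was at 266 TPM in the control, 6055 TPM with arsenite and 256 TPM with NaCl. It stood between 217 and 1802 TPM in the other 4 libraries. Nfat5 was at 23.7 TPM in the control, 29.9 TPM with arsenite and 95.2 TPM with NaCl, and between 22.9 and 48.7 TPM elsewhere. Each marker was thus highest of the 7 libraries in the condition that it marks. All 12 fibroblast markers were present, among them Col1a1 at 2998 TPM with arsenite and 3238 TPM with NaCl, and Vim at 2958 and 4087 TPM. Of the markers of other cells, 1 of 10 for macrophages, 1 of 7 for endothelium, 2 of 7 for epithelium and 1 of 8 for muscle and erythroid cells reached the expression minimum. The summed level of the macrophage markers was 14.7 TPM with arsenite and 16.9 TPM with NaCl, mostly Cd68, and Fcgr1, C1qa and Tyrobp were listed at 0 in both. The endothelial markers summed to 5.24 and 9.45 TPM, the epithelial ones to 44.6 and 52.8 TPM, mostly Krt19, with Epcam at 0 in both. The muscle and erythroid markers summed to 36.9 and 25.7 TPM, nearly all Des, with Myod1 at 0 in both. Between 20445 and 20905 genes were above 0 TPM in the arsenite and NaCl libraries, and TPM keep no read count, so the depth behind them is unknown.

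On the scale of log2(TPM + 1), 683 genes (5.91% of those compared) were more than 2-fold higher with arsenite than with NaCl, and 290 genes (2.51%) were more than 2-fold higher with NaCl. These are called the arsenite-high and NaCl-high genes below, and all differences are given as arsenite minus NaCl on that scale, which understates the change of weakly expressed genes. The remaining 10585 genes (91.6%) lay within 2-fold, and the middle of the distribution was close to 0, with a median of -0.04 and quartiles of -0.30 and 0.30. More than 4-fold apart were 76 genes in the arsenite direction and 30 in the NaCl direction, and more than 8-fold apart were 18 and 7. Just inside the limit were Rspry1 (18.5 TPM with arsenite and 8.75 TPM with NaCl) and Skil (38.8 and 78.7 TPM), and just outside it were Cnot11 (22.5 and 10.8 TPM) and Foxp2 (6.42 and 13.8 TPM). The called genes were expressed below the average gene. The median of the higher level was 11.1 TPM for arsenite-high and 14.7 TPM for NaCl-high genes, against 19.6 TPM for all compared genes in each library.

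**Figure D1:**
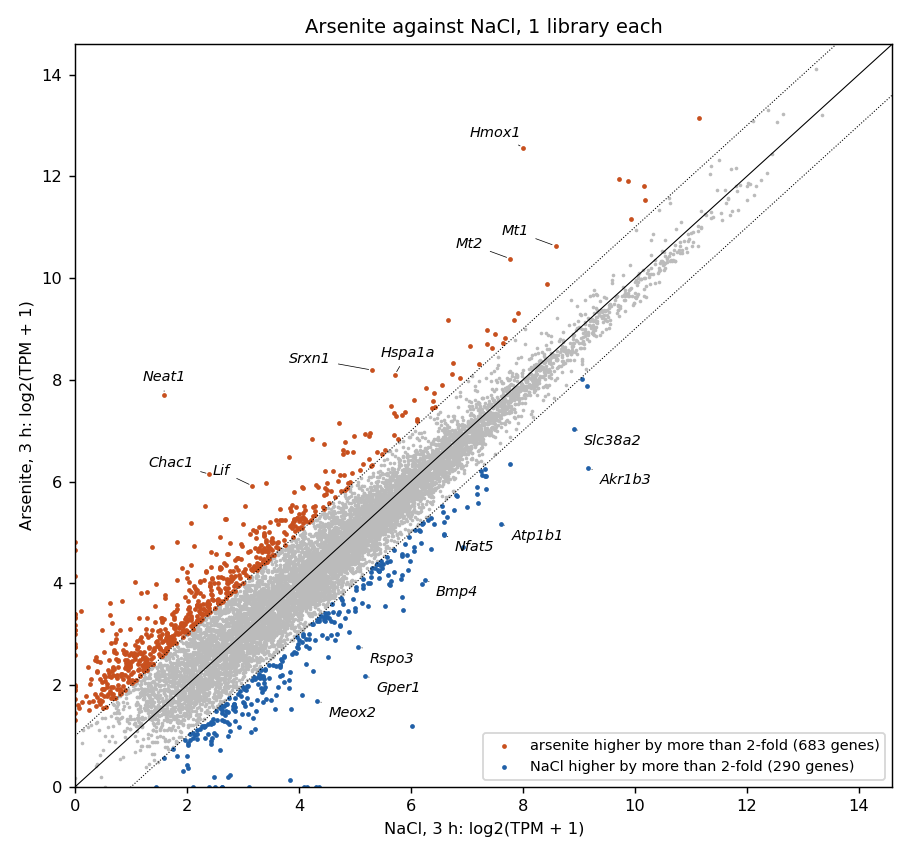
Level of each of the 11558 compared genes in the NaCl library (x axis) against the arsenite library (y axis), both as log2(TPM + 1), 1 library each. Dotted lines mark 2-fold differences; orange points are the 683 arsenite-high genes and blue points the 290 NaCl-high genes, with Hmox1, Neat1 and Chac1 farthest above the diagonal among the labelled genes and Akr1b3 and Gper1 far below it.

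The control level showed from which side a difference came. Of the 683 arsenite-high genes, 387 (56.7%) were more than 2-fold lower with NaCl than in the control, and 124 (18.2%) were more than 2-fold higher with arsenite than in the control. Over all compared genes these classes held 860 (7.44%) and 221 (1.91%). Both held for 8 of the arsenite-high genes, and 180 (26.4%) stayed within 2-fold of the control in both libraries. Of the 290 NaCl-high genes, 88 (30.3%) were more than 2-fold higher with NaCl than in the control, where 186 genes (1.61%) were so over all, and 104 (35.9%) were more than 2-fold lower with arsenite, where 419 (3.63%) were so over all. These shares are read against a control that both stresses have in common, and a gene called in the direct comparison must differ from the control in at least 1 library or by part of the distance in each, so the excess over all genes is fixed in part by the choice. More of the separation thus came from low levels under NaCl than from high levels under arsenite.

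**Figure D2:**
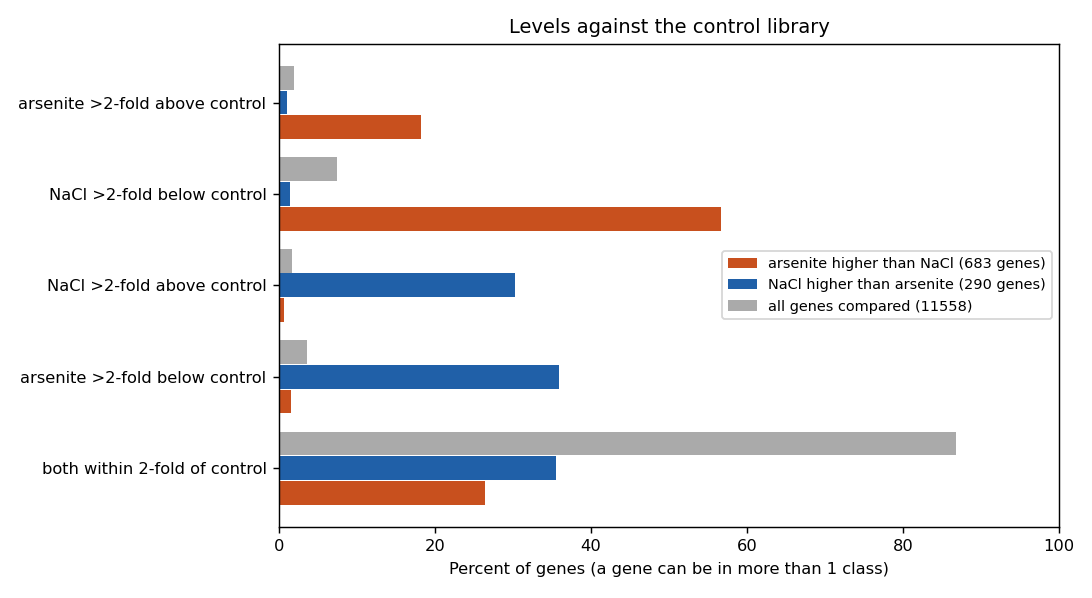
Percent of the 683 arsenite-high (orange), 290 NaCl-high (blue) and 11558 compared genes (grey) in 5 classes set by the control library; a gene can be in more than 1 class. The longest orange bar is NaCl more than 2-fold below control, at 56.7%.

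The rank among all 7 libraries describes the same genes. The choice of the genes fixes part of it, since an arsenite-high gene cannot be highest with NaCl or lowest with arsenite, and the reverse holds for NaCl-high genes. NaCl was the lowest of the 7 for 535 of the arsenite-high genes (78.3%, against 23.1% of all compared genes), whereas arsenite was the highest for 161 (23.6%, against 6.34%). Among the NaCl-high genes, NaCl was highest of the 7 for 171 (59.0%, against 13.5%) and arsenite lowest for 161 (55.5%, against 19.0%). For 258 arsenite-high genes (37.8%) the highest library was thapsigargin, which also held the highest value for 34.6% of all genes.

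The 15 genes farthest apart in the arsenite direction, among those with at least 10 TPM in the higher library, held 10 protein-coding genes. First was Neat1, a nuclear long noncoding RNA that builds paraspeckles (chr19:5824708-5845478, minus strand, GRCm38). It was at 133 TPM in the control, 207 TPM with arsenite and 2.01 TPM with NaCl, a difference of 6.11. The other 4 libraries held 56.2 to 107 TPM, so the NaCl library stood alone at the low end. Malat1, the neighbouring nuclear noncoding RNA, was at 99.1 TPM in the control, 201 TPM with arsenite and 111 TPM with NaCl. It did not share the low NaCl level of Neat1, and its difference was 0.85. Hmox1 was at rank 4 with 4.56, after AC154636.1 (4.82) and Trbj2-3 (4.65). Chac1 was at rank 6 with 3.74, after Scarna3a (4.15). Nhej1, a DNA end-joining factor, was at 96.5 TPM in the control, 44.7 TPM with arsenite and 3.97 TPM with NaCl, below the control in both. Sema7a, a membrane-anchored semaphorin, was at 7.61, 27.2 and 2.55 TPM in the same order. Rpp38, a subunit of RNase P, was at 14.9, 11.2 and 0.548 TPM, Ankrd49 at 18.9, 15.2 and 1.10 TPM, and Atrip, the partner of the checkpoint kinase ATR, at 7.76, 11.6 and 0.797 TPM. For these last 3 genes the arsenite level lay near the control and NaCl was far beneath. 1810011O10Rik was higher with arsenite (25.2 TPM) than in the control (3.52 TPM) or with NaCl (1.58 TPM). Atrip shares 1147 of 7152 exon bases with Trex1 on the same strand (11.6 and 3.06 TPM with arsenite and NaCl), so reads of these genes can be split in error. The rest of the 15 were Srxn1 and Lif, described below, and short noncoding or segment loci (AC154636.1, Trbj2-3, Scarna3a and AC131720.3), of which the first 3 were listed at 0 with NaCl.

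In the NaCl direction the 15 genes held 9 that code for protein. Ranks 1 to 5 were pseudogene, small RNA, segment or unannotated loci. They ran from AC153368.1 (1.28 TPM with arsenite and 64.1 TPM with NaCl, -4.83) to Traj11 (-4.09). Akr1b3, aldose reductase, which makes the osmolyte sorbitol, was at 90.5 TPM in the control, 75.8 TPM with arsenite and 575 TPM with NaCl, a difference of -2.91. The other 4 libraries lay between 69.8 and 140 TPM. Atp1b1, the beta subunit of the sodium pump, was at 50.6, 34.9 and 193 TPM (-2.44), with 39.4 to 55.4 TPM elsewhere. It shares 575 of its 3081 exon bases with Nme7 on the opposite strand, which was at 18.4, 16.4 and 12.8 TPM, so that reads of the pair cannot be fully told apart. NaCl alone was high for Akr1b3 and Atp1b1. Gper1, a G protein-coupled estrogen receptor, was at 1.62 TPM in the control, 3.54 TPM with arsenite and 35.3 TPM with NaCl (-3.00). Opn1sw, a cone opsin of the retina, was listed at 0 in the control, at 0.0913 TPM with arsenite and at 13.3 TPM with NaCl. It shares 397 of its 2557 exon bases with Calu on the opposite strand, which was at 1171 TPM with NaCl, and its value is uncertain because Kallisto at default settings does not use strand. Regulators of development and chromatin were also among the 15. Meox2, a homeobox factor of mesoderm, was at 6.18 TPM in the control, 2.22 TPM with arsenite and 19.1 TPM with NaCl. Rspo3, which strengthens WNT signals, was at 11.7, 5.76 and 32.4 TPM, and the chromatin protein gene Phf6 at 23.2, 10.1 and 57.3 TPM. In all 3 the control lay between the stresses. Adamts1, a secreted matrix protease, was at 81.3, 25.2 and 121 TPM. Lrrtm3 was at 14.9, 1.87 and 13.5 TPM, so that it was arsenite that departed from the control. The other 6 were AC153368.1, BX890553.6, AC161829.1, Rnu73b, Traj11 and AC162446.3, and of these all but AC153368.1 and AC162446.3 were listed at 0 with arsenite.

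**Figure D3:**
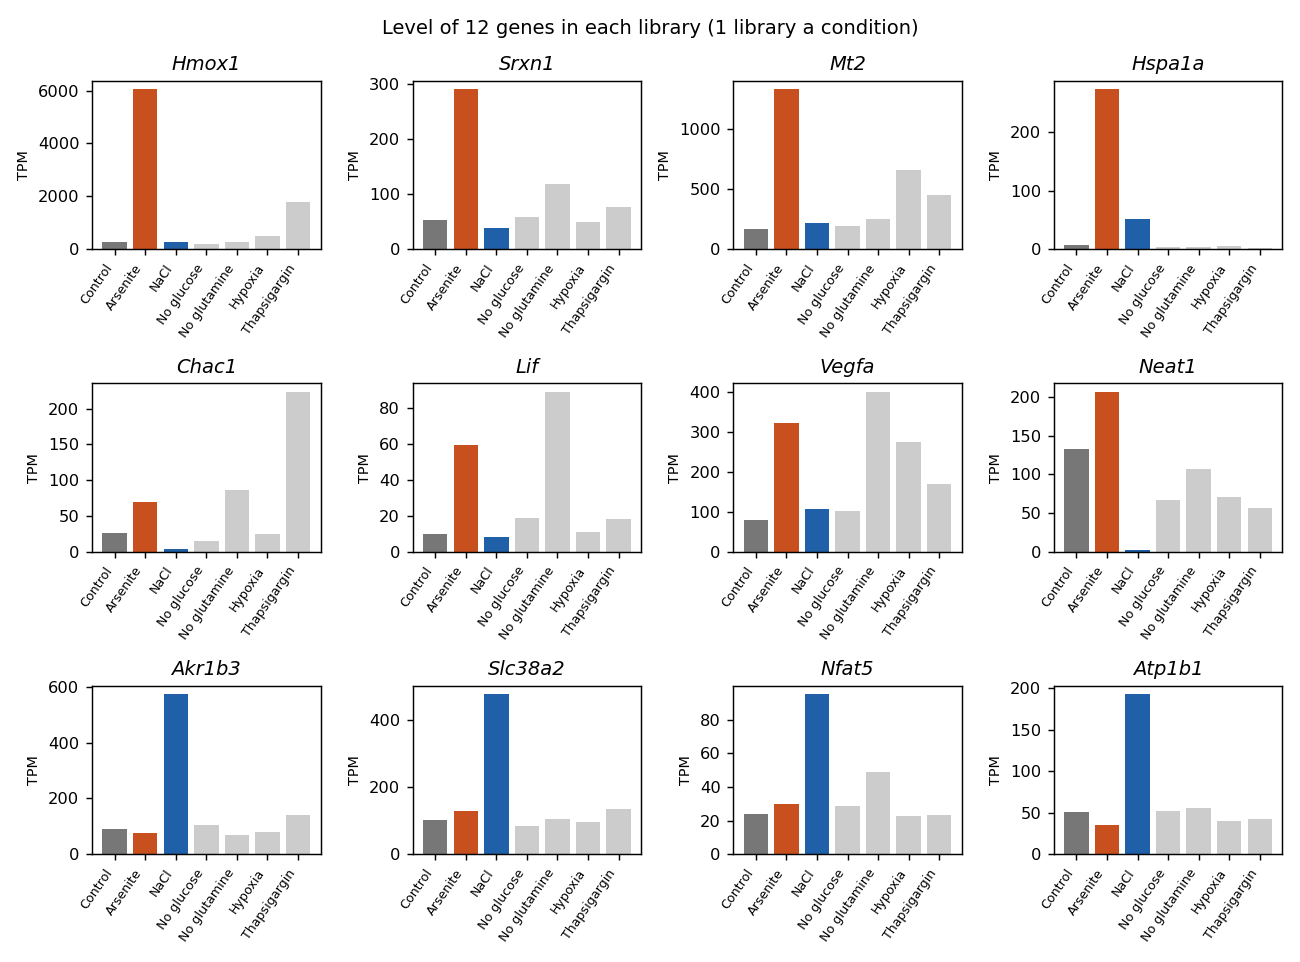
TPM of 12 genes in each of the 7 libraries (1 bar, 1 library; axes start at 0 and differ between panels). Arsenite (orange) is the highest bar for Hmox1, Srxn1, Mt2, Hspa1a and Neat1, NaCl (blue) is the highest for Akr1b3, Slc38a2, Nfat5 and Atp1b1, and for Chac1, Lif and Vegfa glutamine depletion exceeds arsenite.

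Counts in the lists below are read beside the 5.91% arsenite-high and 2.51% NaCl-high over all compared genes. In a short list, 0 or 1 called member is near those shares. The oxidant defence genes were separated at a few members and not as a whole. Of 10 genes of heme and iron handling, 2 were arsenite-high and none was NaCl-high (median difference 0.40). Besides Hmox1 this was the iron exporter Slc40a1, at 3.67 TPM in the control, 9.21 TPM with arsenite and 3.20 TPM with NaCl. The ferritin chains, which store the iron that heme breakdown frees, were close in the 2 libraries: Fth1 at 1870 and 1281 TPM and Ftl1 at 5529 and 5557 TPM. In the glutathione list 3 of 14 were arsenite-high and 0 NaCl-high (median 0.11). Slc7a11, the cystine importer, was at 2.60, 15.7 and 2.54 TPM in control, arsenite and NaCl (2.24). Gclc, the catalytic subunit of the enzyme that makes the glutathione precursor, was at 21.8, 60.0 and 18.7 TPM (1.63), and its partner Gclm at 75.7, 228 and 75.6 TPM (1.58). In each the NaCl level was close to the control, and the 3 genes serve the supply of glutathione. The other 11 members lay within 2-fold. Gss, the glutathione synthetase, was at 53.2 and 52.8 TPM with arsenite and NaCl (0.01). Among the users of glutathione, Gpx1 was at 392 and 515 TPM and Gpx4 at 535 and 592 TPM with arsenite and NaCl. Gsta4, a glutathione transferase, was at 68.0 and 39.0 TPM (0.79), and the exporter Abcc1 at 50.7 and 28.7 TPM (0.80).

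Among 12 thioredoxin genes 3 were arsenite-high and 0 NaCl-high, and the median was -0.02. Srxn1, the sulfiredoxin that repairs overoxidised peroxiredoxins, was at 54.0 TPM in the control, 291 TPM with arsenite and 38.6 TPM with NaCl (2.88). Osgin1 was at 4.12, 18.6 and 2.76 TPM (2.39), and the thioredoxin reductase Txnrd1 at 205, 634 and 241 TPM (1.39). The 6 peroxiredoxins all lay between -0.46 and 0.28, so their mRNA did not follow that of the repair enzyme. None of the 7 NADPH-producing and NADPH-using enzymes passed 2-fold (median 0.13), and Nqo1, the quinone reductase often read as an NRF2 target, was at 142 and 86.4 TPM (0.71). None of 9 regulators of NRF2 passed 2-fold either (median 0.41). Nfe2l2, which encodes NRF2, was at 95.6 TPM in the control, 128 TPM with arsenite and 96.1 TPM with NaCl, and Keap1 at 34.2, 17.0 and 23.8 TPM. Maff, a small Maf partner of NRF2, was at 28.7, 62.8 and 61.1 TPM, more than 2-fold above the control under both stresses.

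The metal response list was the most separated of the oxidant lists, with 3 of 6 compared members arsenite-high, 1 NaCl-high and a median of 1.26. Mt1 was at 342 TPM in the control, 1585 TPM with arsenite and 382 TPM with NaCl (2.05), and Mt2 at 168, 1333 and 217 TPM (2.61). These metallothioneins are small cysteine-rich proteins that hold zinc and other metals. Hypoxia was the next highest library for both, at 1085 TPM for Mt1 and 659 TPM for Mt2. Slc30a1, the zinc exporter, was at 3.32, 8.28 and 0.577 TPM (2.56). The zinc importer Slc39a10 moved the opposite way, at 22.9 TPM in the control, 7.07 TPM with arsenite and 24.7 TPM with NaCl (-1.67). Exporter and metal-binding genes were thus high, and this importer low, in the arsenite library. The upstream bases of both metallothionein genes are shown because the 2 genes with the highest levels in this list lie close together and hold several copies of the element named after metals. They were taken from RefSeq promoters on GRCm38.p6 and run over the 150 bases before the annotated start, 5′ to 3′ on the gene's strand, with the metal response element core (TGCACNC or TGCGCNC, searched on both strands) in capitals. Mt1 lies at chr8:94178939-94179088 and Mt2 at chr8:94172468-94172617, both on the plus strand, and in Mt1 the last few bases reach past the GENCODE start of the gene.
Mt1: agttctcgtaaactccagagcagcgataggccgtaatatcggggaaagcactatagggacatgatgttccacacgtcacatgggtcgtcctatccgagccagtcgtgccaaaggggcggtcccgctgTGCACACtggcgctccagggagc
Mt2: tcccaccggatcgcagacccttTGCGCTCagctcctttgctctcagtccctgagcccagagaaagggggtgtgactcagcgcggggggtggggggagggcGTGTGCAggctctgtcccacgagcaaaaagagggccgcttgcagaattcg
Over the whole promoter window, 250 bases before to 50 after the start, Mt1 held 3 matches and Mt2 held 4, of which 1 and 2 fall in the bases shown. The core is short and common. At least 1 match was held by 3 of 6 promoters of the list, by 25.7% of all 32851 promoters in the RefSeq table and by 36.1% of those of the compared genes, with 33.3% for arsenite-high and 36.2% for NaCl-high genes. The 6 promoters belonged to 5 of the 6 compared genes of the list, since a gene can have several promoters or none.

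A minority of cytosolic chaperones separated the stresses. Of 23 genes, 4 were arsenite-high, 1 was NaCl-high and 18 lay within 2-fold (median 0.30), and against the control 8 were more than 2-fold higher with arsenite and 3 with NaCl. Hspa1a was at 7.52 TPM in the control, 273 TPM with arsenite and 51.4 TPM with NaCl (2.39). Hspa1b was at 22.8, 413 and 263 TPM (0.65). These HSP70 genes are nearly identical, so reads can be split between them in error, and their sum is the safer value. It was 30.3 TPM in the control, 685 TPM with arsenite, 314 TPM with NaCl and between 13.0 and 26.5 TPM in the other 4 libraries, a difference of 1.12. Both 3 h stresses therefore lay far above all other libraries for this pair. Dnajb1, an HSP40 partner of HSP70, was at 31.3, 98.0 and 26.7 TPM (1.84), Dnajb4 at 79.3, 176 and 84.7 TPM (1.05) and the small heat shock protein gene Hspb1 at 191, 580 and 227 TPM (1.35). For these 3 the NaCl level was near the control, unlike the HSP70 pair. Hsph1, the HSP110 nucleotide exchange factor, came just under the limit at 85.5, 267 and 135 TPM (0.97). Its relative Hspa4l went the other way, at 16.7 TPM in the control, 31.5 TPM with arsenite and 70.3 TPM with NaCl (-1.14), and it is known as an osmotically induced gene.

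The upstream bases of Hspa1a, Hspa1b and Hspb1 show how alike the HSP70 pair is and where the heat shock element lies in each. They are drawn as for the metallothioneins (RefSeq, GRCm38.p6, 150 bases before the start, gene strand), with the core GAANNTTC, which reads the same on both strands, in capitals. Hspa1a lies at chr17:34972157-34972306 and Hspa1b at chr17:34959239-34959388, both on the minus strand, and Hspb1 at chr5:135887769-135887918 on the plus strand.
Hspa1a: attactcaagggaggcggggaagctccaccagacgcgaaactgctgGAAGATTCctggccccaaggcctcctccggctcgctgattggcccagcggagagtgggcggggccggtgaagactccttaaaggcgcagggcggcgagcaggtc
Hspa1b: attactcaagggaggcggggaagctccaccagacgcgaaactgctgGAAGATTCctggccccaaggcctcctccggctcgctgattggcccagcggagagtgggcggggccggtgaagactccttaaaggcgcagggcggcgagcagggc
Hspb1: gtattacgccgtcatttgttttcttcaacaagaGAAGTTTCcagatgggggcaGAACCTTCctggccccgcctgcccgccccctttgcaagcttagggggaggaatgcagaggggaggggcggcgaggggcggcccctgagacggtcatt
Hspa1a and Hspa1b were equal at 149 of 150 bases. The promoters shown all hold the core, but not every arsenite-high chaperone did. Both promoters of Dnajb1, which was arsenite-high like Hspa1a and Hspb1, held 0 matches over the whole promoter window. The core was present in 10 of 23 promoters of the cytosolic chaperone list (43.5%), against 7.86% of all promoters and 5.69% of those of the compared genes. These 23 promoters belonged to 18 of the 23 genes, as some genes had several and others none. Over all arsenite-high genes it was in 7.27% and over NaCl-high genes in 4.72% of promoters, near the share of all compared genes. A match is a description of letters and not of binding.

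Other arms of protein quality control differed less. None of 36 proteasome genes passed 2-fold in the direct comparison (median 0.08). Of 19 ER chaperone and unfolded protein response genes 2 were arsenite-high and 1 NaCl-high, and the median of -0.39 lay on the NaCl side. Hspa5, the ER chaperone BiP, was at 1165 TPM in the control, 784 TPM with arsenite and 1034 TPM with NaCl, and both were far below its 12611 TPM with thapsigargin. Xbp1, a transcription factor of the unfolded protein response, was at 92.7 and 43.7 TPM with arsenite and NaCl (1.07), and Dnajb9 at 35.1 and 72.2 TPM (-1.02).

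The integrated stress response was split among its members, with 5 of 22 arsenite-high, 2 NaCl-high and a median of 0.18. Chac1, which degrades glutathione, was at 26.2 TPM in the control, 69.7 TPM with arsenite and 4.28 TPM with NaCl. Trib3 was at 30.8, 34.9 and 6.96 TPM (2.17), Ddit3, the death-promoting factor CHOP, at 136, 177 and 48.9 TPM (1.83), and Sesn2, a restraint on mTORC1, at 35.6, 44.5 and 14.5 TPM (1.56). In all 4 NaCl was more than 2-fold below the control. Atf3 was above the control in both, at 3.02 TPM in the control, 88.3 TPM with arsenite and 13.2 TPM with NaCl (2.65). Atf4 itself hardly separated the stresses, at 276, 424 and 458 TPM. Higher with NaCl were Ppp1r15a, which recruits the phosphatase that ends the response, at 38.8, 68.9 and 154 TPM (-1.15), and Nupr1 at 211, 235 and 568 TPM (-1.27). The amino acid response element core (TGATGCAA) was in 4 of 25 promoters of the list (16.0%), against 0.895% of all promoters. The 25 promoters belonged to 21 of the 22 genes. Of the promoters of compared genes 0.566% held it, with 1.21% for arsenite-high and 0.787% for NaCl-high genes. The promoter of Chac1 held 1 match, and those of Trib3 and Ddit3 held none.

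The osmolyte and NFAT5 list gave the lowest median of the 60 lists. Of 7 osmolyte and NFAT5 genes compared, 4 were NaCl-high and 0 arsenite-high, and all 7 lay below 0 (median -1.14). Besides Akr1b3 and Nfat5 (-1.64) these were Slc38a2, a sodium-coupled transporter of small neutral amino acids, at 102 TPM in the control, 130 TPM with arsenite and 478 TPM with NaCl (-1.87), and Hspa4l. The other transporters differed less: Slc5a3, which imports myo-inositol, was at 6.87, 9.35 and 13.3 TPM (-0.46), and Slc6a6, which imports taurine, at 138, 160 and 188 TPM (-0.23). The betaine carrier Slc6a12 was under the expression minimum and was not compared. It was at 0.586, 2.03 and 0.254 TPM in control, arsenite and NaCl, opposite in direction to the list (1.28). NFAT5's tonicity element core (GGAAANNNC or GGAAANNNT, both strands) is so short that 33.8% of all promoters held it, and 3 of 7 promoters in this list did. Those 7 promoters belonged to 5 of the 7 compared genes. None of 7 hyaluronan genes, also listed under the osmotic response, passed 2-fold (median 0.49). Of 16 genes of ion and volume control, 1 passed in each direction (median -0.15). Atp1b1 was NaCl-high, and Lrrc8a, the essential subunit of the volume-regulated anion channel that opens on swelling, was arsenite-high at 21.1 TPM in the control, 34.7 TPM with arsenite and 11.4 TPM with NaCl (1.53).

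Early response genes differed in both directions, more often with arsenite higher. Of 12 immediate early genes 3 were arsenite-high and 0 NaCl-high (median 0.73): Btg2 at 50.8, 106 and 20.7 TPM, Egr2 at 4.50, 32.2 and 8.06 TPM and Arc at 11.8, 55.6 and 22.8 TPM in control, arsenite and NaCl. Of 14 MAP kinase feedback genes 5 were arsenite-high, namely the MAP kinase phosphatases Dusp10 (1.88), Dusp8 (1.86), Dusp5 (1.85) and Dusp4 (1.31), and Spred2 (1.35). Spry1 was NaCl-high at 21.5, 6.78 and 15.9 TPM. Dusp10 was at 8.80 TPM in the control, 54.4 TPM with arsenite and 14.0 TPM with NaCl. Other phosphatases of the same family did not separate the stresses. Dusp1 was at 44.3, 161 and 175 TPM and Dusp6 at 16.1, 40.9 and 40.6 TPM, above the control in both. Among 12 Krueppel-like factors Klf10 was arsenite-high (30.2 and 7.75 TPM, 1.83) and Klf5 NaCl-high (10.8 and 36.5 TPM, -1.67). Of 9 AP-1 subunits, Jun (109 and 54.1 TPM) and Atf3 were arsenite-high. Of 15 genes of NF-kB and its feedback, Bcl3 was arsenite-high (8.94 and 3.21 TPM, 1.24) and Tnfaip3 NaCl-high (2.79 and 7.07 TPM, -1.09).

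Some genes departed from the control in both libraries. Against the control, 42 compared genes were more than 2-fold higher under both stresses (0.363%) and 111 more than 2-fold lower (0.960%). Both comparisons use the same control library, so a low or high value in it alone puts a gene in these classes, and 6 of the 42 were listed at 0 there. Within 1.5-fold of each other lay 24 of the 42. Examples, picked after their values were seen, were Ptgs2, the inducible cyclooxygenase, at 83.8 TPM in the control, 489 TPM with arsenite and 420 TPM with NaCl, and Ereg, a ligand of the EGF receptor, at 16.2, 86.8 and 85.3 TPM. Fosb was at 1.03, 6.77 and 6.37 TPM. Only 7 of the 42 differed by more than 2-fold between the stresses. Higher with arsenite were Atf3, Hspa1a, the calcineurin regulator Rcan1 (191 and 82.7 TPM) and AC245272.5, and higher with NaCl were the organic anion transporter Slco4a1 (14.8 and 72.3 TPM), Gem (24.6 and 80.7 TPM) and Stab1 (2.95 and 7.49 TPM).

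Secreted growth factors, the interest of the study, separated in both directions. Of 37 compared, 9 were arsenite-high and 3 NaCl-high (24.3% and 8.11%, against 5.91% and 2.51% of all compared genes), with a median of 0.17. Lif, a cytokine of the IL-6 family, was at 9.74 TPM in the control, 59.3 TPM with arsenite and 7.98 TPM with NaCl (2.75). Fgf2 was at 46.9, 109 and 27.1 TPM (1.97), Inhba, the activin A subunit, at 199, 504 and 163 TPM (1.63), and Vegfa, the main endothelial growth factor, at 78.6, 322 and 106 TPM (1.60). The others were Il11 (1.60), Areg (1.52), Gdf15 (1.39), Hbegf (1.38) and Pdgfb (1.36). At a pseudocount of 5 TPM the differences of Areg and Pdgfb were 0.71 and 0.57, inside 2-fold. Lif, Fgf2, Inhba, Vegfa, Il11, Hbegf and Pdgfb were all higher still without glutamine than with arsenite, and Lif reached 89.1 TPM there. In the NaCl direction Bmp4 was at 69.2 TPM in the control, 15.7 TPM with arsenite and 75.3 TPM with NaCl (-2.19), Bdnf at 25.0, 22.2 and 56.5 TPM (-1.31) and Wisp2 at 515, 258 and 530 TPM (-1.04). For Bmp4 and Wisp2 the low arsenite level made the difference and for Bdnf the high NaCl level. Csf1, the growth factor on which macrophages depend, was within 2-fold at 377, 483 and 318 TPM (0.60). Of 10 chemokines and cytokines, Cxcl1 (2.26 and 10.3 TPM) and Cxcl5 (16.8 and 55.9 TPM), which attract neutrophils, were NaCl-high and none was arsenite-high.

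Matrix, cytoskeleton and cell cycle genes were mostly alike under the 2 stresses. None of 18 collagens and none of 24 mitosis genes passed 2-fold in the direct comparison, and their medians were -0.20 and 0.01. Mitosis genes were nevertheless below the control in both, with medians of -0.78 for arsenite and -0.71 for NaCl on the same log2 scale. Itga5, a subunit of the fibronectin receptor, differed at 201 TPM in the control, 476 TPM with arsenite and 179 TPM with NaCl (1.40). Among 13 targets of YAP, the transcriptional coactivator that senses crowding, 1 was arsenite-high and 3 NaCl-high (median -0.30). Ajuba was at 40.6, 10.8 and 45.4 TPM (-1.97), the YAP-inhibiting kinase gene Lats2 at 56.4, 30.5 and 95.5 TPM (-1.62) and Amotl2 at 195, 56.6 and 160 TPM (-1.48). All 3 encode components of the Hippo pathway. Nppb was at 6.68, 37.3 and 5.41 TPM (2.58), and the often used target Ctgf at 1177, 1961 and 1043 TPM (0.91). Among the fibroblast markers Twist1 alone passed 2-fold, at 44.3, 23.7 and 65.3 TPM (-1.43).

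Numbered Zfp genes, which mostly encode C2H2 zinc finger proteins, many of them KRAB repressors, gave the largest count on the arsenite side. Of 280 compared, 89 were arsenite-high (31.8%, against 5.91% of all compared genes) and 1, Zfp239, was NaCl-high, with a median of 0.71. Zfp263 was at 9.13 TPM in the control, 13.2 TPM with arsenite and 1.44 TPM with NaCl, and lay between 10.7 and 18.9 TPM in the other 4 libraries. Zfp623 was at 9.48, 13.0 and 1.27 TPM, with 8.99 to 18.6 TPM elsewhere. In these genes the NaCl library stood apart. Of the 278 that the annotation gives as protein-coding, NaCl was more than 2-fold below the control in 117 (42.1%) and arsenite in 10 (3.60%), while among the 10897 other protein-coding genes the shares were 6.24% and 3.32%. The Zfp genes were weakly expressed, with a control median of 7.87 TPM against 23.9 TPM, so they were also compared with other genes of like level. At a mean of 2 to 5 TPM, 40.2% of 92 Zfp genes and 9.94% of 1438 other genes were arsenite-high. At 20 to 50 TPM the shares were 22.2% of 36 and 3.32% of 2984. Only 4 Zfp genes had a mean of 50 TPM or more, and none of these was called.

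**Figure D4:**
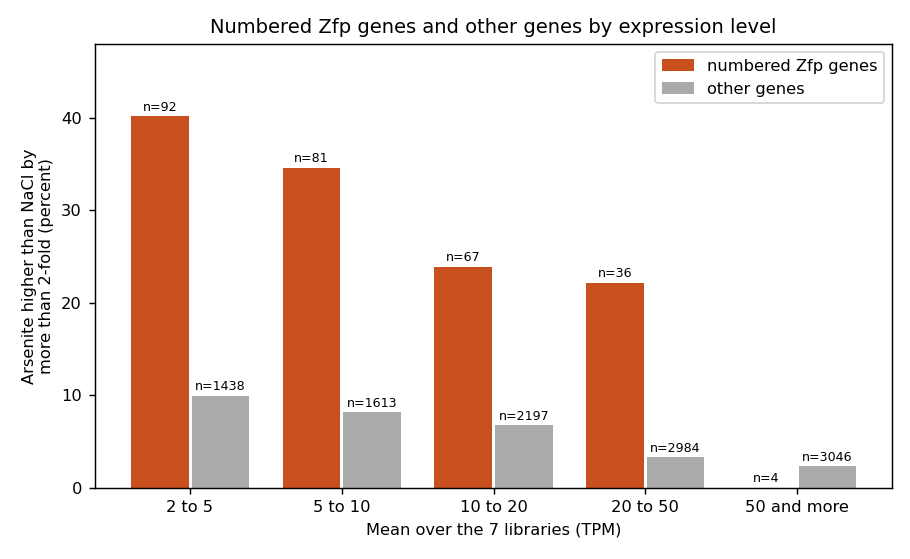
Percent of genes more than 2-fold higher with arsenite than with NaCl among numbered Zfp genes (orange) and other compared genes (grey), in bins of mean level over the 7 libraries (TPM); n is the number of genes in a bin. The Zfp share exceeds that of other genes in every bin up to 50 TPM, from 40.2% against 9.94% in the lowest bin to 22.2% against 3.32% at 20 to 50 TPM.

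Transcripts encoded by the mitochondrial genome were higher with arsenite. All 13 lay above 0 and 3 passed 2-fold, mt-Nd3 (1.64), mt-Nd6 (1.35) and mt-Nd5 (1.24), with a median of 0.90. Together they took 8.10% of the TPM with arsenite, 4.47% with NaCl and 5.63% in the control. The 75 nuclear genes of the respiratory chain had none past 2-fold and a median of -0.14, and ribosomal proteins had 1 of 75 arsenite-high and a median of -0.23. Because TPM are shares, a larger mitochondrial share lowers every other value in that library.

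The called genes also differed in structure from the compared genes. Of the arsenite-high genes 625 of 683 (91.5%) were protein-coding and of the NaCl-high genes 246 of 290 (84.8%), against 96.7% of all compared. Among protein-coding genes, the median genomic span was 17.5 kb for arsenite-high, 26.9 kb for NaCl-high and 25.0 kb for all. Spans over 100 kb were found for 7.20% of the arsenite-high and 18.7% of the NaCl-high genes, with 13.7% of all. Of the 2794 longest genes, those over 58.3 kb, 3.47% were arsenite-high and 2.76% NaCl-high, and of the 2794 shortest, under 10.7 kb, 6.91% and 2.68%.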

How the data were processed

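Libraries of MEFs were made by the authors from poly(A) RNA with a stranded kit. The authors ran Kallisto, at version 0.43.1 according to the submitters' processing notes, against the cDNA of GRCm38 (Ensembl release 90), and deposited TPM per gene, summed over transcripts. TPM hold no read counts, so no count test was possible and the depth per sample is unknown. All value columns were mapped to samples by name (0 unused). The NaCl value of log2(TPM + 1) was subtracted from the arsenite value. The minimum was a mean of 2 TPM, and 69 identical repeat rows were counted once. A difference of more than 2-fold was counted. With 1 library per condition no test was run.

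The members and the 60 gene lists were chosen with earlier results of these data known. Genes named are the 15 with the largest difference in each direction among those with at least 10 TPM in the higher library, Hmox1, Nfat5, list members past 2-fold, farthest or defining, and Csf1. A few genes that the rule names are not reported here. Others are said to be picked later. Skil, Rspry1, Cnot11 and Foxp2 are the genes next to the limit, and Malat1 and the Zfp examples were named after their values were seen. Gene types and positions came from GENCODE M21 (GRCm38) by Ensembl identifier, with 48 of the compared genes unmatched. Promoters came from RefSeq (GRCm38.p6), and 8908 of 11547 symbols matched. Of 28 annotated genes among the 15 in each direction, 8 shared exon bases with another gene. The steps were tested on simulated data. Alternatives were other pseudocounts, filters, thresholds and scalings. The tools were Python 3.11.15 with pandas 2.3.3, numpy 2.4.6 and, for plots, matplotlib 3.10.9.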

Additional observations from a re-analysis of the deposited data

How the results depend on the processing

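No paired analysis was possible because each condition had 1 library. The counts of arsenite-high and NaCl-high genes, 683 and 290, moved most with the threshold, to 1629 and 1053 at 1.5-fold and 202 and 69 at 3-fold. A pseudocount of 5 TPM gave 251 and 111, and a mean of at least 10 TPM gave 343 and 144. The NaCl-high count was 521 with no expression filter and 503 with no symbols left out. More genes were arsenite-high than NaCl-high under all 10 alternatives, and the arsenite share of the calls ran from 60.7% to 74.5%, with 70.2% as reported. With a pseudocount of 5 TPM the median of the metal response list was 0.78, that of the circadian clock list 0.27 and that of the numbered Zfp genes 0.71 became 0.37, as that pseudocount shrinks the differences of weakly expressed genes. Of 137 named or called list genes none changed sign under the 4 alternatives run on single genes, but this is no check. A pseudocount cannot change a sign, and the scalings moved the median of all genes only from -0.04 to 0.00 and 0.02. With a pseudocount of 5 TPM, 25 of the 137 genes fell inside 2-fold. Among these were Areg, Pdgfb, Cry2, Slc40a1, Spry1, Jun, Tnfaip3, Bcl3, Dnajb9 and Pdk1. Centring on the median, or leaving out the mitochondrially encoded genes and rescaling, moved 5 across the limit (Btg1, Dnajb9, Skil, Snhg3 and Wisp2). Without replicates, no statement here can be set against the spread between cultures.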

Other observations

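The circadian clock list, not described above, held 5 arsenite-high and 0 NaCl-high genes of 15 (median 0.55, and 0.27 with a pseudocount of 5 TPM). Per2, a repressor of the clock, was at 1.41 TPM in the control, 10.8 TPM with arsenite and 1.70 TPM with NaCl (2.13). Ciart was at 4.56, 7.47 and 0.392 TPM (2.61), Bhlhe41 at 7.99, 16.2 and 3.01 TPM (2.10), Bhlhe40 at 49.7, 95.3 and 28.1 TPM (1.73) and Cry2 at 10.1, 9.73 and 3.68 TPM (1.20, and 0.76 with a pseudocount of 5 TPM). Per2 was high with arsenite and near the control with NaCl, whereas Ciart, Bhlhe41 and Cry2 were more than 2-fold below the control with NaCl.

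Of 7 genes of MondoA and the arrestins 2 were arsenite-high, Txnip and Arrdc2, and 0 NaCl-high (median 0.71). Txnip, the thioredoxin-binding arrestin that MondoA controls, was at 70.7 TPM in the control, 44.9 TPM with arsenite and 7.22 TPM with NaCl (2.48), and lay between 16.1 and 120 TPM elsewhere. Among 24 glycolysis and HIF genes 4 were arsenite-high and 2 NaCl-high (median -0.19). The glucose transporter Slc2a1 was at 58.4, 157 and 55.9 TPM (1.47) and Hk2 at 16.2, 28.6 and 10.4 TPM (1.38), while Pdk1 (5.16 and 14.5 TPM with arsenite and NaCl) and Adm (75.3 and 159 TPM) were NaCl-high. Of 19 p53 targets 4 were arsenite-high, among them Gadd45a at 30.3, 85.5 and 37.0 TPM (1.19) and Plk2 at 89.8, 155 and 52.2 TPM (1.56), and Eda2r, at 25.2, 16.9 and 47.2 TPM, was NaCl-high (-1.43).

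Of 11 interferon response genes 1 was arsenite-high and 2 NaCl-high. Irf1 was at 26.6 TPM in the control, 14.5 TPM with arsenite and 3.36 TPM with NaCl (1.83), and Ifit2 at 13.1, 5.65 and 17.0 TPM (-1.43). Clk2, a kinase of splicing factors, was at 31.5, 35.9 and 10.2 TPM (1.73) and was the 1 gene of 20 SR protein and Clk genes past 2-fold.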
